A study of Rattus norvegicus with 9 samples.

Results

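Mesenchymal stromal cells have no single surface marker, and are recognised by a set of membrane proteins that their cultures carry together. The genes of 10 such proteins were followed here: Thy1, Nt5e, Eng, Cd44, Alcam, Vcam1, Mcam, Ngfr, Cd9 and Pdgfra. They were taken by gene symbol from a table of 21923 rat genes, and all 10 were found once and were among the 12364 genes with enough counts to be tested. Thy1 (CD90), Nt5e (CD73) and Eng (CD105) are the positive markers of the consensus definition of these cells, which also asks that markers of blood cells be absent. Cd44 is a hyaluronan receptor. Alcam (CD166), Vcam1 (CD106) and Mcam (CD146) are adhesion molecules of the immunoglobulin superfamily, Cd9 is a tetraspanin, Ngfr (CD271) is a neurotrophin receptor and Pdgfra (CD140a) is a growth factor receptor.

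The cells were adipose-derived stromal cells (ADSCs), the plastic-adherent mesenchymal cells of fat, digested with collagenase from the inguinal subcutaneous fat of GFP-transgenic rats and grown in medium with 10% serum. Vivo libraries (n = 3) came from passage 4 cells that had been injected into fat of nude mice and isolated again 7 days later. Vitro libraries (n = 3) came from passage 4 cells that stayed in incubator culture with passaging and were collected when the Vivo cells were. Con libraries (n = 3) came from passage 4 cells as such. All 3 groups therefore share the transgenic rat source, the passage at which the experiment began and the culture before it. Vitro cells were passaged further before they were collected. Nude mice lack T cells but keep other immune and stromal cells, and reads were aligned to the rat genome. Low values of cell type markers therefore do not measure how many mouse cells were present. How injected cells were separated from host cells is not given in the sources used here. Nor do they say that replicates are different animals or cultures, so a p-value here sets a group difference against the scatter of these libraries. Part of that scatter can be technical.

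Poly(A)-selected RNA was sequenced to 17484607 to 18355242 counts per library. Levels of a gene across libraries are given as CPM, counts scaled by TMM to a common library size, and 3 counts, the most that a count of 0 allows, come to 0.163 to 0.172 CPM (counting error only). Vivo replicate 3 stood apart from Vivo replicates 1 and 2. Across genes, its log2 difference from the mean of the other libraries of its group had a Spearman correlation of -0.52 with gene length. The Vitro and Con libraries had -0.09 to 0.09. Vivo replicates 1 and 2 had 0.40 and 0.45, but the mean each was set against includes replicate 3. Genes are no independent replicates here. Mitochondrial transcripts made up 3.48% of its counts, against 2.07% to 2.54% elsewhere. Marker genes are given with and without it, as are the other genes named here whose call was lost without it. The libraries were checked against 11 other defining genes of stromal cells, such as the collagen gene Col1a1. All 11 were measured, and together they reached 68192 to 70216 CPM in Vivo, 62500 to 88289 in Vitro and 85263 to 106150 in Con. Of the 11, 1 rose and 2 fell in Vivo against Con, and 2 rose and 1 fell against Vitro. Fn1, the fibronectin gene, fell in both, with 7636 ± 1173 CPM in Vivo, 15215 ± 851 in Vitro and 16420 ± 1250 in Con. Of a list of 15 leukocyte markers, which is wider than the definition's, 13 stayed under 1 CPM in every library, among them Ptprc (CD45). The exceptions were Cd14, the lipopolysaccharide co-receptor, which averaged 23.8 ± 1.66 CPM in Vivo, 21.2 ± 3.19 in Vitro and 20.6 ± 1.62 in Con (SD, n = 3 each), and Spn, which reached 1.33 CPM in 1 Vitro library. Cd34, a blood progenitor marker that the definition also requires to be absent and that fat-derived stromal cells can carry, averaged 6.57 ± 0.377 CPM in Vivo, 0.275 ± 0.0532 in Vitro and 0.323 ± 0.117 in Con, and passed in both comparisons of Vivo (edgeR adjusted p = 0.0001 and 0.0002).

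Most of the marker genes were abundant, and their order was much alike in the 3 groups. Levels can be compared between genes only per length, and for this the authors' FPKM values were used. Thy1, which encodes a small glycosylphosphatidylinositol-anchored protein of the immunoglobulin family, was the highest of the 10 in each group, with a mean of 456 ± 109 FPKM in Vivo, 587 ± 16.4 in Vitro and 485 ± 27.7 in Con (SD, n = 3). Nt5e, Cd9 and Pdgfra followed. Nt5e averaged 99.6 ± 44.6 FPKM in Vivo, 93.3 ± 25.8 in Vitro and 124 ± 26.1 in Con, and Pdgfra averaged 85.6 ± 19.3 FPKM in Vivo, 63.5 ± 10.7 in Vitro and 82.0 ± 19.3 in Con. Cd9 stood at 90.0 ± 2.39 FPKM in Vivo, where it ranked 3, against 153 ± 4.44 in Vitro and 132 ± 8.69 in Con, where it ranked 2. In Vivo these 3 neighbours lay within the spread of Nt5e and Pdgfra.

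The middle of the order was where the groups differed. Cd44, Eng and Alcam averaged 33.5 ± 6.01, 31.2 ± 9.08 and 27.7 ± 9.01 FPKM in Vivo and could not be ordered beyond their spread. In Vitro and Con, Alcam lay above both, with 63.1 ± 12 and 80.3 ± 16.6 FPKM, and Eng lay below both, with 11.9 ± 0.748 and 18.2 ± 2.64 FPKM, while Cd44 averaged 41.5 ± 10.7 and 27.0 ± 2.20 FPKM. Mcam, Vcam1 and Ngfr were low throughout: Mcam averaged 4.39 ± 1.15 FPKM in Vivo, 5.74 ± 0.629 in Vitro and 3.60 ± 1.28 in Con, and Vcam1 averaged 1.25 ± 0.702, 1.58 ± 0.427 and 1.42 ± 0.665 FPKM in the same groups. Ngfr, at 0.187 ± 0.0938 FPKM in Vivo, 0.140 ± 0.0567 in Vitro and 0.0569 ± 0.0374 in Con, was within reach of the counting floor. Together the 10 genes took 0.265% to 0.294% of all counts in Vivo, 0.284% to 0.315% in Vitro and 0.272% to 0.326% in Con.

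**Figure D1:**
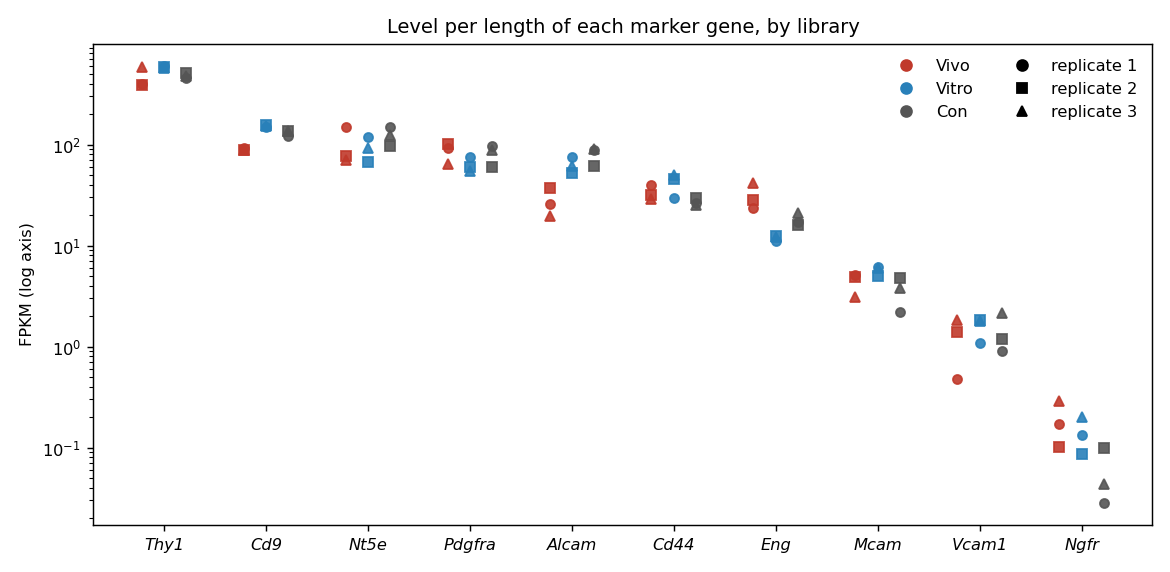
FPKM of each marker gene in each library on a log axis, genes ordered by their mean over all libraries, with Vivo, Vitro and Con side by side and a symbol for each replicate number. Thy1 is highest and Ngfr lowest in each group, and Alcam and Eng lie close together in Vivo but apart in Vitro and Con.

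In Vivo, 2 of the 10 marker genes were lower than in both cultured groups, and 1 was higher than in time-matched culture. Cd9 and Alcam fell against Con and against Vitro, and Eng rose against Vitro. The usual positive markers Thy1, Nt5e, Cd44 and Pdgfra did not pass in either comparison over all libraries. Against Con, 0 members were higher and 2 lower by edgeR's quasi-likelihood test at an adjusted p of 0.05, where 9.73% of the genes tested passed (5.17% higher and 4.56% lower). Against Vitro, 1 was higher and 2 were lower, where 10.9% of the genes tested passed (5.38% higher and 5.52% lower). Libraries did not overlap between Vivo and Con for 4 members, 2 higher and 2 lower, and for 33.5% of the genes tested (17.3% higher and 16.1% lower). Between Vivo and Vitro this was so for 3 members, 1 higher and 2 lower, and for 35.2% of the genes tested (17.7% higher and 17.5% lower). With 10 genes, counts of this size say little beside these shares, and the members are described singly. The median log2 fold change of the 10 was -0.08 against Con and -0.33 against Vitro, beside 0.01 and 0.02 over all genes tested. Both comparisons use the same Vivo libraries, so that their results are not independent of each other.

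**Figure D2:**
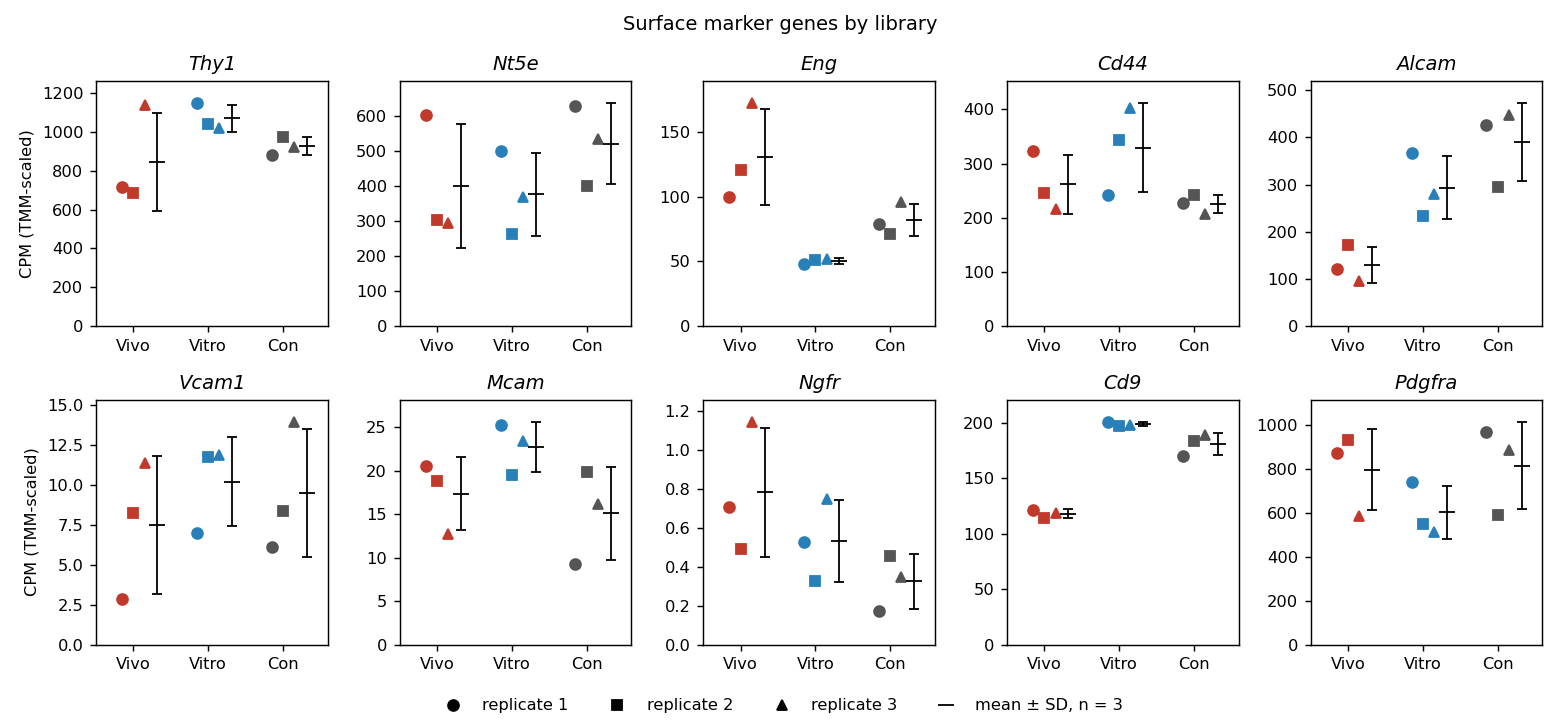
TMM-scaled CPM of each marker gene in each library, with the mean ± SD of the 3 libraries of a group beside the points; each panel has its own linear axis from 0. Cd9 and Alcam are lower in every Vivo library than in any Vitro or Con library, and Eng is higher.

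Cd9 encodes a tetraspanin, a membrane protein that gathers integrins and immunoglobulin proteins into patches of membrane and is abundant on extracellular vesicles. Its libraries lay close together, with a coefficient of variation of 3.09% in Vivo, 0.981% in Vitro and 5.40% in Con. Cd9 had 122, 114 and 119 CPM in the Vivo libraries, 201, 197 and 198 CPM in the Vitro libraries, and 170.1, 184 and 189 CPM in the Con libraries. The groups did not overlap: each Vivo library lay below each cultured library, and the 3 Vitro libraries lay above the 3 Con libraries by a small margin. The log2 fold change was -0.61 ± 0.10 (SE) for Vivo against Con and -0.75 ± 0.10 for Vivo against Vitro, with edgeR adjusted p = 0.0079 and 0.0020, and 0.14 ± 0.10 for Vitro against Con (adjusted p = 0.69). Vivo levels were thus 0.65 times those of Con and 0.59 times those of Vitro. Vivo replicate 3 was at 1.00 times the mean of the other Vivo libraries for this gene, whose length as implied by counts and FPKM is 1331 bases. Without Vivo replicate 3 the values were -0.64 against Con and -0.77 against Vitro. The call against Con was lost without Con replicate 3 (adjusted p = 0.051), and the adjusted p of the alternatives ran from 4.0e-08 to 0.051. Against Vitro, Cd9 passed in all 19 alternatives.

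Because Cd9 fell in both comparisons and had the smallest SE of the 10 genes, the 300 bases around its start in RefSeq (GRCr8, chr4:159975309-159975608, minus strand) are shown, with GC boxes (GGGCGG, on either strand) in capitals. The window runs from 250 bases before the start to 50 after it. It holds 3 GC boxes, and 33.1% of 33469 rat promoter windows of this length hold at least 1. The counts themselves rest on another assembly, Rnor_6.0.

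Cd9: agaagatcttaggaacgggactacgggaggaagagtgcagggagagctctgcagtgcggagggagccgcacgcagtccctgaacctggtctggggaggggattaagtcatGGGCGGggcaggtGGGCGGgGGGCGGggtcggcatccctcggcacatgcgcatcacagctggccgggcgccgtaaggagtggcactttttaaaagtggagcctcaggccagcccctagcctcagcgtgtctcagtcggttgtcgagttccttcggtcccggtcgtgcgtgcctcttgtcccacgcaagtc

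Other tetraspanins and partners of Cd9 gave mixed values. Of 23 measured genes of this list, 3 fell and 0 rose against Con, and 5 fell and 2 rose against Vitro, beside 9.73% and 10.9% called over all genes tested, the shares beside which each list's count stands. Cd81, the closest relative of Cd9 in function, had 202, 176 and 263 CPM in the Vivo libraries and 487, 498 and 487 CPM in the Con libraries, with no overlap and a log2 fold change of -1.20 ± 0.16 (edgeR adjusted p = 0.0028). Cd53, which is mainly a leukocyte tetraspanin, averaged 0.699 ± 0.103 CPM in Vivo and 3.25 ± 0.750 in Con, and Tspan2 averaged 4.09 ± 1.07 CPM in Vivo and 9.33 ± 3.12 in Con, a call that was lost without Vivo replicate 3 (edgeR adjusted p = 0.063). Against Vitro, the laminin-binding integrin gene Itga3, whose product associates with tetraspanins, fell to 13.2 ± 6.42 CPM in Vivo, against 65.7 ± 13.8 in Vitro. Its log2 fold change against Con, -0.94, did not pass. The median log2 fold change of the list was -0.33 against Con and -0.22 against Vitro.

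Alcam encodes an adhesion molecule that binds itself and CD6 on neighbouring cells. It showed the largest fall of the 10 genes in both comparisons. Alcam had 120.5, 171 and 96.1 CPM in the Vivo libraries, 366, 234 and 280.2 CPM in the Vitro libraries, and 427, 295 and 447 CPM in the Con libraries. All Vivo libraries lay below all cultured ones, while Vitro and Con overlapped. Alcam's log2 fold change was -1.59 ± 0.26 against Con and -1.18 ± 0.25 against Vitro (edgeR adjusted p = 0.0060 and 0.017), which leaves 0.33 and 0.44 times the level of the cultured cells. Without Vivo replicate 3 the values were -1.44 (adjusted p = 0.011) and -1.02 (adjusted p = 0.031). Against Con the gene passed in all 19 alternatives, with adjusted p from 1.5e-07 to 0.031. Against Vitro it passed in 17 of 19, and the call was lost without Vitro replicate 1 (adjusted p = 0.056) or Vivo replicate 1 (adjusted p = 0.051). Between Vitro and Con the difference was -0.41 ± 0.25 (adjusted p = 0.59, with a 95% interval of -0.97 to 0.15).

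The promoter window of Alcam (RefSeq, GRCr8, chr11:61805207-61805506, plus strand) is shown beside that of Cd9 because the 2 genes fell together. None of the letters searched was found in it: the GC box, the kB motif (GGGNTTNCC, found in 4.81% of the windows), the AP-1 motif (TGANTCA, in 7.33%) or the TATA box (TATAAA, in 14.2%), each on both strands.

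Alcam: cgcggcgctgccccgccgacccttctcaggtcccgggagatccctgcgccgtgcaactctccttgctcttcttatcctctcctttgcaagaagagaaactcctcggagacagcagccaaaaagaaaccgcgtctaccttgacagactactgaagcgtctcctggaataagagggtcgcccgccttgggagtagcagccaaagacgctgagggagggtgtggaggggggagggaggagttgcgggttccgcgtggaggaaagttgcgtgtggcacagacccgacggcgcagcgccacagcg

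Cd6, its ligand on lymphocytes, stayed under 1 CPM in every library. Among 18 measured integrins, laminins and relatives that partner the adhesion molecules of the set, 1 rose and 1 fell against Con, and 2 rose and 2 fell against Vitro. Lama5, a laminin chain, was at 2.59 ± 0.603 CPM in Vivo, against 11.5 ± 2.63 in Vitro and 8.10 ± 2.28 in Con, and passed in both comparisons (edgeR adjusted p = 0.0016 against Vitro and 0.0087 against Con). Itgb7, an integrin beta chain, rose to 6.01 ± 0.996 CPM in Vivo, against 2.64 ± 0.948 in Con, and did not pass against Vitro (log2 fold change 0.69). The list's median log2 fold change was -0.32 against Con and -0.07 against Vitro.

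Eng encodes endoglin, a co-receptor that joins type I and type II receptors of the TGF-beta family, with ALK1 (Acvrl1) as its main partner in endothelium. Eng had 100.2, 121 and 172 CPM in the Vivo libraries, 48.1, 51.3 and 51.8 CPM in the Vitro libraries, and 79.2, 71.6 and 95.9 CPM in the Con libraries. The 3 groups did not overlap at all: Vivo was highest, Vitro lowest and Con between them. Against Vitro the log2 fold change was 1.38 ± 0.20, 2.6-fold (edgeR adjusted p = 0.0024), and it passed in all 19 alternatives, with 1.12 as the value without Vivo replicate 3. Against Con it was 0.67 ± 0.20 and did not pass (adjusted p = 0.059, with a 95% interval of 0.23 to 1.11). Of 19 alternatives 6 called this difference, DESeq2 (adjusted p = 0.023) and the fit without Vivo replicate 1 (adjusted p = 0.039) among them, and the adjusted p ran from 0.023 to 0.18. Without Vivo replicate 3, which held the highest Eng value, the difference was 0.40 (adjusted p = 0.084). For Vitro against Con the difference was -0.71 ± 0.20 (adjusted p = 0.23), a value that passed in 1 of 19 alternatives, limma-voom with sample quality weights.

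The 300 bases around the RefSeq start of Eng (GRCr8, chr3:36332029-36332328, plus strand) are given because it was the marker that moved up while Cd9 and Alcam moved down. None of the 4 motifs was found in this window.

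Eng: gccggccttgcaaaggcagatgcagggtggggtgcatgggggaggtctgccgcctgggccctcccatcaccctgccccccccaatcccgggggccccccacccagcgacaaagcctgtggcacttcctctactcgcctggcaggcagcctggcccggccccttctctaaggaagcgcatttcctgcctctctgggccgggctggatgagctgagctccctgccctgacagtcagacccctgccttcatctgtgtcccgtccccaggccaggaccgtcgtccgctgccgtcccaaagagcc

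Of 20 measured genes of the TGF-beta receptor list, 3 rose and 0 fell against Con, and 2 rose and 0 fell against Vitro, near the 9.73% and 10.9% called over all genes tested. The ligand genes Tgfb1 and Tgfb3 rose against Con, with 151.4 ± 41.3 and 122 ± 11.1 CPM in Vivo and 81.7 ± 19.3 and 64.6 ± 12.9 CPM in Con, and Tgfb1 no longer passed without Vivo replicate 3 (log2 fold change 0.63, edgeR adjusted p = 0.085, against 0.89 with it). Against Vitro neither ligand gene passed (log2 fold changes 0.38 and 0.28). Id2, an inhibitor of basic helix-loop-helix factors, was at 85.3 ± 30.8 CPM in Vivo, against 35.2 ± 1.77 in Vitro and 29.2 ± 1.11 in Con, and rose in both comparisons, also without Vivo replicate 3, where it had 121 CPM against 65.8 and 69.1 in the other Vivo libraries. Tgfbr3 (betaglycan), the relative of endoglin among the co-receptors, rose to 340 ± 60.1 CPM in Vivo, against 137 ± 40.4 in Vitro (edgeR adjusted p = 0.030). Against Con its log2 fold change was 0.27 and did not pass. The list's median was -0.04 against Con and 0.14 against Vitro.

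Endoglin is also made by endothelial cells and by macrophages, and in bulk RNA a change in the share of such cells cannot be told apart from a change in RNA per cell. Of 14 endothelial markers in the table, 8 stayed under 1 CPM in every library, among them Cdh5 and Vwf, and Cldn5 had no count at all. The list summed to 58.2 to 71.2 CPM in Vivo, 74.7 to 87.0 in Vitro and 55.4 to 60.5 in Con. Within it Kdr, the main VEGF receptor, rose to 14.8 ± 2.66 CPM in Vivo, against 1.34 ± 0.0519 in Vitro and 1.14 ± 0.433 in Con, and Ptprb, an endothelial phosphatase, fell to 0.276 ± 0.0489 CPM in Vivo, against 14.5 ± 1.08 in Vitro and 4.85 ± 0.375 in Con. Of 14 macrophage markers, 11 stayed under 1 CPM in every library, C1qa and Adgre1 among them, and the list summed to 5.61 to 9.35 CPM in Vivo, 2.27 to 4.84 in Vitro and 2.55 to 3.79 in Con. Csf1r, the most abundant of them, averaged 4.25 ± 0.725 CPM in Vivo, 2.00 ± 1.08 in Vitro and 1.62 ± 0.423 in Con. Each Vivo library lay above each cultured one for Csf1r, but it did not pass (edgeR adjusted p = 0.053 against Con and 0.10 against Vitro). Mouse host cells would add counts only where their reads align to the rat genome. The part of endothelial cells and macrophages in the Eng values was not tested.

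**Figure D3:**
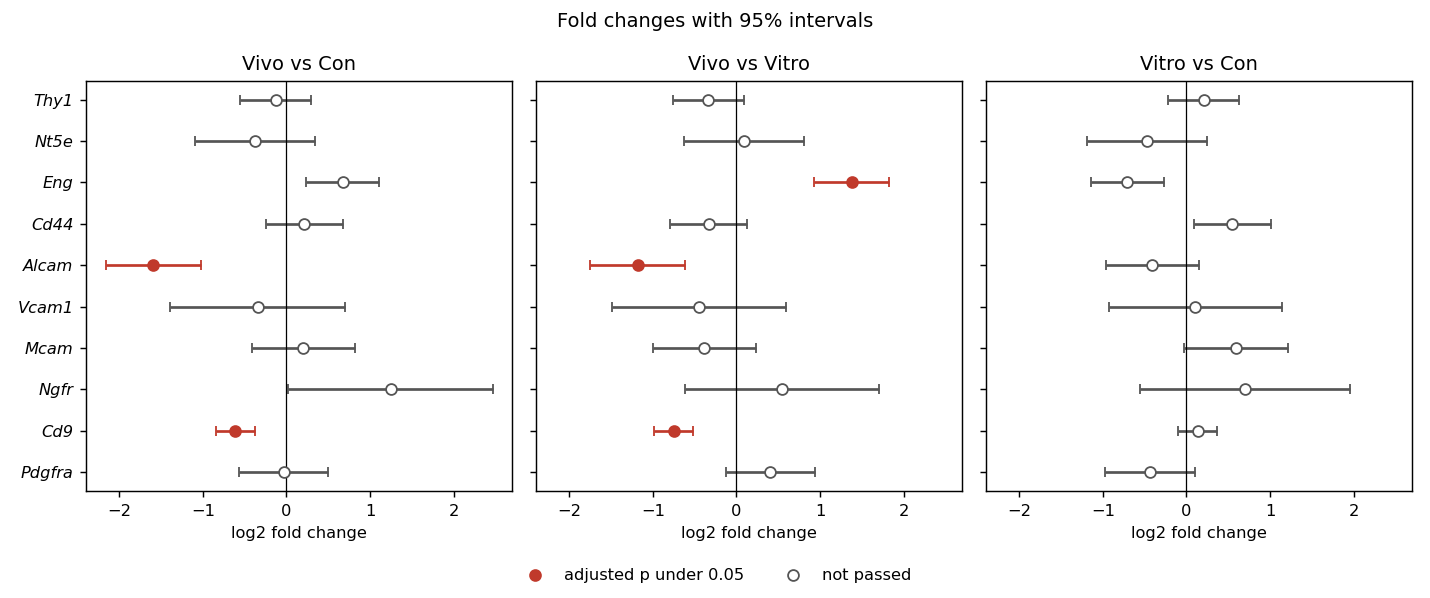
Log2 fold change of each marker gene with its 95% interval in the 3 comparisons, from the edgeR fit of all 9 libraries; filled red points passed an adjusted p of 0.05 and open points did not. Alcam and Cd9 lie left of 0 in both comparisons of Vivo, Eng lies to the right, and no point is filled for Vitro against Con.

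Thy1, whose product binds integrins on other cells and restrains fibroblast activation, depended on a single library. Thy1 had 718, 687 and 1140 CPM in the Vivo libraries, 1149, 1044 and 1019 CPM in the Vitro libraries, and 884, 976 and 923 CPM in the Con libraries. Vivo replicates 1 and 2 lay below every cultured library, and Vivo replicate 3, at 1.62 times their mean, lay above every Con library. Over all libraries the log2 fold change was -0.13 ± 0.19 against Con and -0.34 ± 0.19 against Vitro (edgeR adjusted p = 0.69 and 0.28). Without Vivo replicate 3 it was -0.42 ± 0.09 and -0.62 ± 0.09, and both passed (adjusted p = 0.023 and 0.0044). Its length as implied by counts and FPKM is 1850 bases, and with offsets that took out each library's trend with gene length, the values were -0.23 (adjusted p = 0.28) and -0.46 (adjusted p = 0.054). Limma-voom with sample quality weights, which gave Vivo replicate 3 the lowest weight of all libraries, called both, and the adjusted p over all alternatives ran from 0.011 to 1.00 against Con.

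Nt5e encodes CD73, a membrane-anchored nucleotidase that turns extracellular AMP into adenosine. Its libraries spread widely in each group, and replicate 1 was the highest of each. Nt5e had 603, 303 and 294 CPM in the Vivo libraries, 499.7, 263 and 368 CPM in the Vitro libraries, and 629, 400.5 and 533 CPM in the Con libraries, so that the 3 groups overlapped. The log2 fold change was -0.38 ± 0.32 against Con, with a 95% interval of -1.10 to 0.34, and 0.09 ± 0.32 against Vitro, with an interval of -0.63 to 0.80 (edgeR adjusted p = 0.47 and 0.88). The values were -0.22 and 0.25 without Vivo replicate 3. Intervals of this width do not show that the levels were alike. With the replicate number as a block, the value against Con was -0.43 ± 0.17 (edgeR adjusted p = 0.16).

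Among 11 measured genes of the adenosine pathway, 5 rose and 1 fell against Con, and 6 rose and 1 fell against Vitro. Against Con, Adk and Cd38 were among those that did not pass, with log2 fold changes of 0.15 and 0.12. Enpp3, an ectoenzyme that hydrolyses nucleotides, rose to 635 ± 178 CPM in Vivo, against 40.3 ± 13.4 in Vitro and 128 ± 83.4 in Con. The receptor gene Adora2a rose to 15.7 ± 5.90 CPM, against 1.62 ± 0.400 in Vitro and 2.38 ± 0.898 in Con. The nucleoside transporter gene Slc29a1 fell to 11.4 ± 4.36 CPM in Vivo, against 35.1 ± 6.06 in Con. Entpd2, which removes phosphates from ATP upstream of CD73, averaged 8.24 ± 4.24 CPM in Vivo and 1.35 ± 0.228 in Vitro, with a log2 fold change of 2.61 over all libraries and 2.09 without Vivo replicate 3. Against Con its value of 1.65 did not pass. The median log2 fold change of the list was 0.96 against Con and 1.32 against Vitro.

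Cd44 encodes the main receptor for hyaluronan. It had 323, 245 and 217 CPM in the Vivo libraries, 242, 344 and 403 CPM in the Vitro libraries, and 228, 241 and 207 CPM in the Con libraries. Vivo overlapped with both cultured groups, while each Vitro library was above each Con library, Vitro replicate 1 by less than 1 CPM. The log2 fold change was 0.22 ± 0.21 for Vivo against Con (95% interval -0.24 to 0.67) and -0.33 ± 0.21 for Vivo against Vitro (-0.79 to 0.13), with edgeR adjusted p = 0.53 and 0.32. Leaving out Vivo replicate 3 gave 0.31 and -0.23. The counts do not separate splice forms of this gene. Of 19 measured genes of hyaluronan synthesis and turnover, 3 rose and 0 fell against Con, and 2 rose and 0 fell against Vitro. The synthase gene Has1 rose to 10.1 ± 2.64 CPM in Vivo, against 0.935 ± 0.603 in Vitro and 1.51 ± 0.825 in Con. Spp1, which encodes the CD44 ligand osteopontin, was at 43.4 ± 10.7 CPM in Vivo and 19.99 ± 5.40 in Con, but at 42.6, 59.3 and 75.9 CPM in the Vitro libraries. Its log2 fold change against Vitro was -0.45 and did not pass. Cemip, which helps degrade hyaluronan, rose against Vitro, with 319.8 ± 186 CPM in Vivo and 79.8 ± 24.0 in Vitro. Against Con its log2 fold change of 0.54 did not pass.

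Pdgfra encodes a tyrosine kinase receptor that marks fibroblasts and adipocyte progenitors. It had 875, 934 and 586 CPM in the Vivo libraries, 742, 552 and 514 CPM in the Vitro libraries, and 971, 591 and 888 CPM in the Con libraries, and the groups overlapped. Its log2 fold change was -0.03 ± 0.24 against Con, with an interval of -0.57 to 0.50, and its sign changed in 7 of 19 alternatives. Against Vitro it was 0.41 ± 0.24 (edgeR adjusted p = 0.30), and 0.57 without Vivo replicate 3 (adjusted p = 0.12). Of 16 measured genes around the PDGF receptors, 1 rose and 1 fell against Con, and 3 rose and 1 fell against Vitro. Pdgfa, a ligand of this receptor, fell to 32.6 ± 1.89 CPM in Vivo, against 56.0 ± 3.13 in Vitro and 56.4 ± 8.99 in Con, and Pdgfrb, the second receptor and a pericyte marker, averaged 528 ± 42.2 CPM in Vivo and 376 ± 25.0 in Vitro (adjusted p = 0.045). Pdgfrb did not pass against Con (log2 fold change 0.11). Plat, a protease that activates a PDGF ligand, was higher in both comparisons, with 117 ± 28.8 CPM in Vivo, 41.9 ± 5.15 in Vitro and 45.3 ± 7.13 in Con.

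Vcam1 encodes a ligand of leukocyte integrins, and cytokines raise it through NF-kB in endothelium. It was low in ADSCs and spread widely between replicates: Vcam1 had 2.83, 8.23 and 11.4 CPM in the Vivo libraries, 6.99, 11.8 and 11.8 CPM in the Vitro libraries, and 6.14, 8.38 and 14.0 CPM in the Con libraries. The 3 groups overlapped, and counts ran from 52 in Vivo replicate 1 to 241 in Con replicate 3. The log2 fold change was -0.35 ± 0.47 against Con and -0.45 ± 0.47 against Vitro, with intervals of -1.39 to 0.70 and -1.49 to 0.59 (edgeR adjusted p = 0.67 and 0.56). Leaving out Vivo replicate 3 gave -0.80 and -0.90 (adjusted p = 0.30 and 0.27). Of 18 measured NF-kB factors and targets, 4 rose and 0 fell against Con, and 3 rose and 0 fell against Vitro, beside 9.73% and 10.9% called over all genes tested. The others did not pass: against Con, Icam1, Il6 and Il1b had log2 fold changes of 0.35, 0.40 and -0.99. Nfkbia, an inhibitor that NF-kB itself induces, rose to 133 ± 66.7 CPM in Vivo, against 38.6 ± 13.5 in Vitro and 19.2 ± 10.1 in Con, with 77.3, 114 and 207 CPM in the Vivo libraries. Without Vivo replicate 3 its log2 fold change against Vitro was 1.30 and no longer passed (edgeR adjusted p = 0.070), against 1.78 with it. Tnfaip3, another inhibitor in this pathway, averaged 16.4 ± 4.97 CPM in Vivo and 4.20 ± 1.07 in Con, and did not pass against Vitro (log2 fold change 0.52). The cytokine gene Tnf stayed under 1 CPM in every library.

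The promoter window of Vcam1 (RefSeq, GRCr8, chr2:206742734-206743033, minus strand) is shown because it was the only one of 7 members with a promoter sequence to hold the kB motif. The capitals mark 2 kB matches, and farther on a TATA box that reads on both strands (TTTATAAA). The window was GC-poor beside those of Eng and Cd9, at 50.3% against 68.7% and 64.0%, and the median of all windows was 51.7%.

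Vcam1: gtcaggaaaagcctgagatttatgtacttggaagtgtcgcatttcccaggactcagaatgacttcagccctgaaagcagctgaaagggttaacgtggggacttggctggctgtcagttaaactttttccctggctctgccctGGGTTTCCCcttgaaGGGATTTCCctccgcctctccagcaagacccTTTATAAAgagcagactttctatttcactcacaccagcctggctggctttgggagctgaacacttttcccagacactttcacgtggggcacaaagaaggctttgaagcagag

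Mcam encodes an adhesion molecule of pericytes and endothelium that binds laminin. It had 20.6, 18.9 and 12.7 CPM in the Vivo libraries, 25.2, 19.6 and 23.4 CPM in the Vitro libraries, and 9.27, 19.9 and 16.2 CPM in the Con libraries. The groups overlapped in each comparison. Mcam had a log2 fold change of 0.20 ± 0.28 against Con and -0.39 ± 0.28 against Vitro (edgeR adjusted p = 0.67 and 0.39), and 0.36 and -0.22 without Vivo replicate 3. Other mural markers split: of 10 measured, 3 rose and 2 fell against Con, with Cspg4 (NG2) at 28.8 ± 12 CPM in Vivo and 8.90 ± 2.21 in Con, and Myh11, a smooth muscle myosin, at 9.77 ± 2.73 and 38.1 ± 4.32 CPM. Against Vitro, 5 of the 10 rose and 3 fell, and Cspg4 did not pass (log2 fold change 0.42). Notch3 rose in both comparisons, with 14.2 ± 7.71 CPM in Vivo and 1.58 ± 1.03 in Con. In Vitro it had 0.132 ± 0.119 CPM, near the counting floor. Kcnj8 and Abcc9 rose against Vitro, with log2 fold changes of 3.86 and 2.66. Myh11 fell against Vitro too (log2 fold change -2.73), and Cnn1 fell against Con (-1.57).

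Ngfr encodes the p75 neurotrophin receptor, a marker used to enrich stromal progenitors from fresh tissue. It was barely detected: the Vivo libraries held 13, 9 and 20 counts, the Vitro libraries 9, 6 and 14, and the Con libraries 3, 8 and 6. Con replicate 1 lay at the limit that a count of 0 allows. In CPM, Vivo lay above Con without overlap, at 0.707, 0.490 and 1.14 against 0.171, 0.453 and 0.348, and Vitro overlapped with both. The log2 fold change of 1.25 ± 0.55 did not pass (edgeR adjusted p = 0.18), and it was 0.85 without Vivo replicate 3 (adjusted p = 0.36). Of 11 measured genes of the neurotrophin pathway, 0 rose and 1 fell against Con, and 0 rose and 2 fell against Vitro. Sort1 (sortilin), a partner of p75, fell to 9.09 ± 3.29 CPM in Vivo, against 33.1 ± 9.08 in Vitro and 30.6 ± 4.49 in Con. Of 4 measured Schwann cell and nerve markers, 0 rose and 1 fell in each comparison of Vivo. This was S100b, at 12.9 ± 1.98 CPM in Vivo, 51.5 ± 13.9 in Vitro and 45.4 ± 10.3 in Con.

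**Figure D4:**
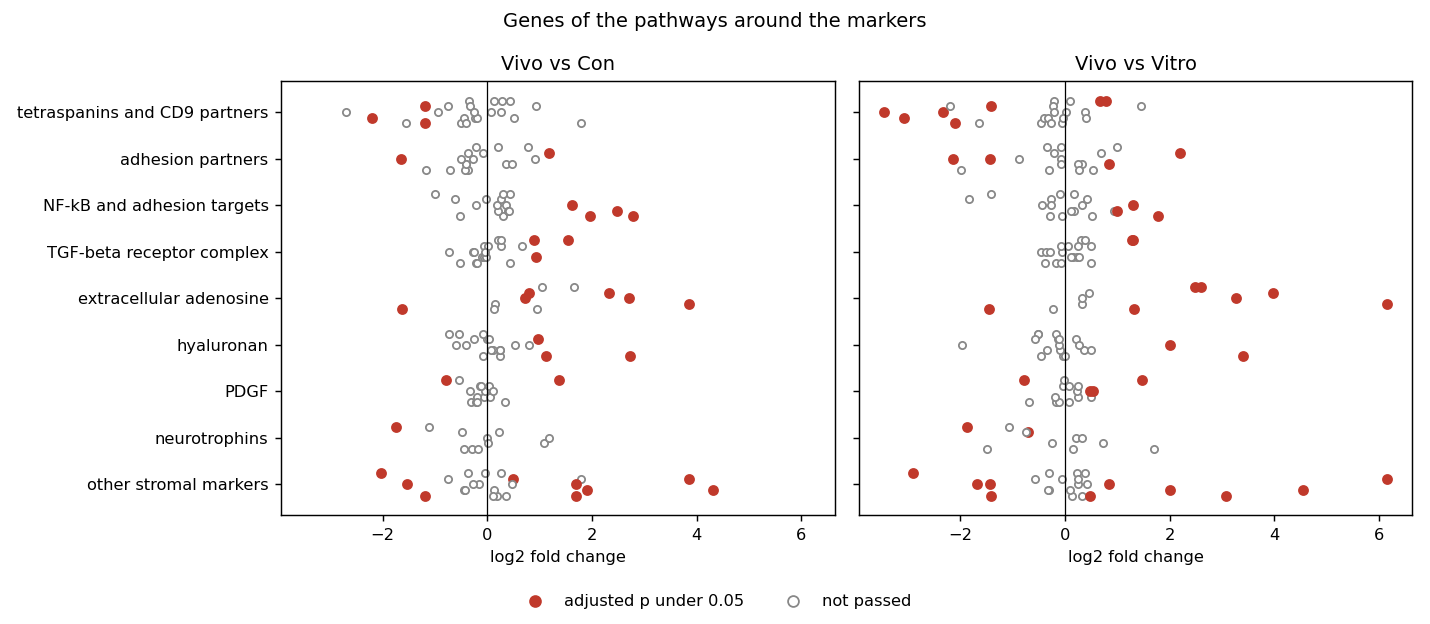
Log2 fold change of each measured gene of the 9 lists around the markers, Vivo against Con and Vivo against Vitro, with a row per list; filled red points passed an adjusted p of 0.05. Filled points lie only on the right for NF-kB, TGF-beta and hyaluronan, and only on the left for neurotrophins. They lie mostly on the right for extracellular adenosine and other stromal markers, and mostly on the left for the tetraspanins. Few points are filled against Con and Vitro: 4 and 3 of 18 for NF-kB and 3 and 2 of 20 for TGF-beta. Hyaluronan had 3 and 2 of 19, and neurotrophins 1 and 2 of 11. Over all genes tested, 9.73% and 10.9% passed.

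Continued culture was compared with the starting culture by Vitro against Con. Eng was lower and Cd44 higher in every Vitro library than in any Con library, but by edgeR 0 of the 10 genes passed, where 0.0324% of the genes tested passed (0.00809% higher and 0.0243% lower). At an unadjusted p under 0.05, where 11.4% of the genes tested lay, there were 2, Eng and Cd44, and the Cd44 difference was 0.55 ± 0.21 (adjusted p = 0.35). DESeq2 also called 0 of the 10, and 2.34% of the genes tested. Limma-voom with sample quality weights called 4 of the 10, Cd44 as higher and Eng, Alcam and Pdgfra as lower in Vitro, and 21.8% of the genes tested. In 4 of the 10 the Vitro and Con libraries did not overlap (Thy1, Cd44 and Cd9 higher in Vitro, Eng lower), where this was so for 21.4% of the genes tested (11.1% higher and 10.3% lower). The median absolute log2 fold change of the 10 was 0.45, against 0.19 over all genes tested. Mcam averaged 22.7 ± 2.90 CPM in Vitro and 15.1 ± 5.38 in Con, and the difference of 0.59 ± 0.28 did not pass (adjusted p = 0.46). For Thy1, Nt5e and Pdgfra the differences were 0.21 ± 0.19, -0.47 ± 0.32 and -0.44 ± 0.24, with adjusted p = 0.76, 0.65 and 0.54.

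The test for any difference among the 3 groups passed for the same 3 genes, Cd9 (edgeR adjusted p = 0.0044), Eng (adjusted p = 0.0063) and Alcam (adjusted p = 0.011), and for 10% of all genes tested. For the other 7 the adjusted p lay between 0.20 for Cd44 and 0.74 for Vcam1.

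Within a group the markers did not move as a block. In Vivo replicate 3, Thy1, Eng, Vcam1 and Ngfr were at 1.62, 1.56, 2.06 and 1.91 times the mean of the other 2 Vivo libraries, and Nt5e, Alcam, Mcam and Pdgfra were at 0.65, 0.66, 0.64 and 0.65 times it. Con replicate 2 was low for Nt5e, Alcam and Pdgfra. Over the 9 libraries, taken as deviations of log2 CPM from the group mean, Alcam and Pdgfra went together (Pearson's r = 0.88) and so did Eng and Vcam1 (r = 0.84), while Nt5e and Vcam1 ran opposite to each other (r = -0.78). These are descriptions over 9 libraries that share their groups.

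**Figure D5:**
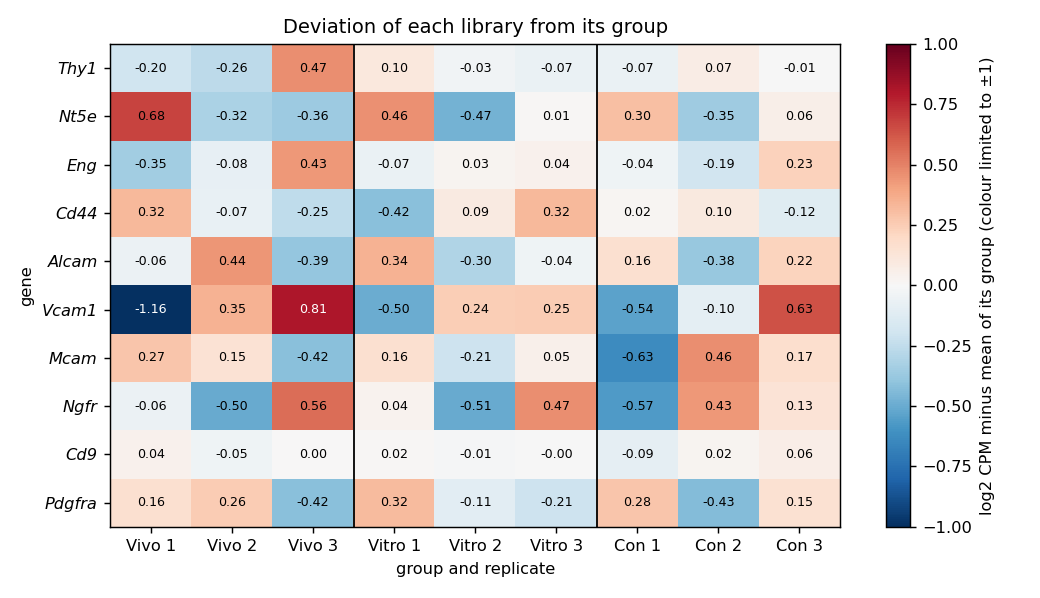
Log2 CPM of each marker gene in each library minus the mean of its group, in columns for the 3 Vivo, 3 Vitro and 3 Con libraries; red is above the group's mean, blue below it, and each cell prints its value. Cd9 deviates by 0.09 or less in every library, and Vivo replicate 3 is high for Thy1, Eng, Vcam1 and Ngfr and low for Nt5e, Alcam, Mcam and Pdgfra.

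The genes most like the 3 called markers over the 9 libraries were found by Pearson's correlation of log2 CPM among 9435 genes. For Cd9 they were Gpr176 (r = 0.99), an orphan G protein-coupled receptor, the chemokine gene Ccl20 (r = 0.98) and Slc16a4 (r = 0.98), of the monocarboxylate transporter family. For Alcam they were the collagen gene Col5a2 (r = 0.98), Zfp717 (r = 0.98) and Mtss1l (r = 0.97). For Eng they were the early response transcription factor gene Egr2 (r = 0.98), the stress-induced phosphatase subunit gene Ppp1r15a (r = 0.98) and Mdfi (r = 0.97). With 9 libraries in 3 groups, any gene that separates the groups alike gives a high value.

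Beside the 10, the wider list of 23 measured stromal surface markers had 6 higher and 3 lower in Vivo than in Con, and 6 higher and 4 lower than in Vitro, beside 9.73% and 10.9% called over all genes tested. Besides Cd34, Dpp4 (CD26) and Pi16, which mark fibroblast progenitors, were higher: Dpp4 averaged 3.11 ± 0.916 CPM in Vivo, 0.0360 ± 0.0624 in Vitro and 0.210 ± 0.0346 in Con, and Pi16 averaged 14.7 ± 5.42 CPM in Vivo and 3.92 ± 0.495 in Con (edgeR adjusted p = 0.0090). Cd55, far more abundant, was lower in both comparisons, with log2 fold changes of -1.53 against Con and -1.68 against Vitro. It had 1328, 715 and 802 CPM in the Vivo libraries. The Vitro libraries had 3220, 2741 and 3144 CPM, and the Con libraries 2603, 2575 and 3022. Anpep (CD13), a membrane peptidase, rose to 1174 ± 324 CPM in Vivo, against 138 ± 31.0 in Vitro. Cd200, an immunoglobulin family ligand that dampens myeloid cells, fell to 5.64 ± 2.19 CPM in Vivo, against 42.1 ± 12 in Vitro and 23.2 ± 8.60 in Con. Of 6 measured mesothelial markers, 2 were higher and 0 lower in Vivo than in Con, and 4 were higher and 1 lower than in Vitro. The list of 9 summed to 109 to 151.3 CPM in Vivo, 28.8 to 32.6 in Vitro and 29.6 to 37.5 in Con, with Upk3b and Krt19 under 1 CPM in every library and Muc16 with no count, and Msln alone, the mesothelin gene, averaged 108 ± 20.7 CPM in Vivo, 17.4 ± 1.48 in Vitro and 19.8 ± 2.79 in Con. Lrrn4 was the gene lower than in Vitro, and this call was lost without Vivo replicate 3 (edgeR adjusted p = 0.064). Adipocyte markers were near 0, with 7 of 9 under 1 CPM in every library, Adipoq and Plin1 among them. The part of mesothelial cells in the marker values was not tested.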

How the data were processed

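RNA from 9 libraries of rat ADSCs was made into stranded poly(A) libraries, per the labels' protocols, and reads were aligned with HISAT2 to Rnor_6.0, per the submitters' processing notes. Which counter and strand setting were used is not given in the sources used here; overlapping and antisense genes are therefore uncertain. The deposited table gives raw counts per gene, per the file headers, and FPKM values made by the authors, whose tool is not given in the sources used here.

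Counts were filtered with filterByExpr and scaled by TMM. One quasi-likelihood fit in edgeR 4.0.16 (R 4.3.3) over all libraries gave the 3 pairwise contrasts, two-sided, with Benjamini-Hochberg adjustment over 12364 genes at a threshold of 0.05. SE comes from the log2 fold change and its F statistic, and 95% intervals use the fit's moderated degrees of freedom. CPM take the tested genes' counts as library size. The fit was tested on simulated data. Replicates were no duplicates (chi-square per gene of at least 12). The members and the 17 lists of other genes were chosen with earlier results of these data known. All 10 members were named, with up to 4 called genes per list and comparison, or the most abundant where none was called, and the 3 genes most like each called member (mean of at least 5 CPM). Some called genes of a list, and some genes that this rule selects, are not named. Genes singled out as absent or summed were chosen after their values were seen. Of 272 distinct symbols in the lists 266 were found. Promoter sequences came from RefSeq (GRCr8) and were found for 7 of 10 members; those of Thy1, Mcam and Ngfr were not used here. Alternatives were RLE size factors, no filter, at least 1 CPM in 3 libraries, DESeq2 1.42.0, a replicate block, each library left out, fits to 2 groups, limma 3.58.1 with sample quality weights, gene length offsets, and limma on log2(FPKM + 1) and log2(FPKM + 0.1) for genes with FPKM of at least 1 in 3 libraries. Figures were drawn with matplotlib 3.10.9 in Python 3.11.15.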

Additional observations from a re-analysis of the deposited data

How the results depend on the processing

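Among the log2 fold changes of single marker genes under alternatives, 525 kept their direction and side of the threshold, 15 passed it anew, 3 no longer passed it and 16 changed sign. The number of marker genes called was 2, 3 and 0 for Vivo against Con, Vivo against Vitro and Vitro against Con. With sample quality weights in limma-voom it was 4, 5 and 4, and with 1 library left out it ran from 1 to 3, from 2 to 4 and stayed at 0. The lowest value against Con came without Con replicate 3. The sign of 5 uncalled genes was not stable. For Vivo against Con, leaving out 1 library gave log2 fold changes of Pdgfra from -0.22 to 0.12, Mcam from -0.055 to 0.45, Vcam1 from -0.80 to 0.045 and Thy1 from -0.42 to 0.0018. Pdgfra was also positive with quality weights (0.069), gene length offsets (0.12), log2(FPKM + 1) (0.063) and log2(FPKM + 0.1) (0.064). For Vivo against Vitro, Nt5e ran from -0.34 to 0.34 with 1 library left out, and for Vitro against Con, Vcam1 ran from -0.13 to 0.49. The cause was not tested. Ngfr gave a value in 15 or 16 of the 19 alternatives.

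All genes called numbered 1203, 1348 and 4 in the 3 comparisons. They were 341 to 1706, 661 to 1660 and 0 to 54 with 1 library left out, 667, 861 and 0 in fits to 2 groups, 2046, 2077 and 298 with DESeq2, and 3458, 2852 and 2690 with quality weights. On log2(FPKM + 1), 776 genes were higher and 382 lower in Vivo than in Con, beside 639 and 564 in the main test. On log2(FPKM + 1) and log2(FPKM + 0.1), 1 and 2 genes were called between Vitro and Con.

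Correlations of same-numbered deviations ran from -0.0150 to 0.358, and between Vitro and Con they were 0.358, 0.324 and 0.092. Differently numbered libraries were not compared in this way, so pairing by replicate number was not settled. Nt5e was highest and Vcam1 lowest in replicate 1 of each group. With the replicate number as a block, all genes called were 1203, 1243 and 7, and the marker genes called were 3, 3 and 0, Eng being called against Con (log2 fold change 0.65, adjusted p = 0.043). Ngfr had at most 20 counts in a library, so its values carry wide intervals.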
